A study of Homo sapiens with 16 samples.

Results

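RNA levels of BRD9 and 9 of its partner subunits were examined in the kidney rhabdoid tumor line G401, which is mutant for SMARCB1. The members were the 10 genes whose symbol in the files is BRD9, GLTSCR1, GLTSCR1L, SMARCD1, SMARCC1, SMARCA4, BCL7A, BCL7B, BCL7C or SS18, out of 57820 genes listed. All 10 passed the filter on low counts, which left 15027 genes to test. The cells had received a CRISPR guide against BRD9 (BRD9 KO) or, as the control, against the bacterial gene LacZ, and were sampled on days 1, 2, 3 and 5. There were 2 libraries for each genotype and day, which gives 8 groups and 16 libraries. The study's methods describe Cas9-expressing lines that received guides in a lentiviral vector and were selected with puromycin, so both genotypes would carry Cas9 and a guide. According to the study's text, clones without BRD9 could not be recovered from this line. The study also reports loss of BRD9 protein, by western blot, in G401 cells given CRISPR-Cas9 against BRD9. In these files BRD9 RNA was present in every BRD9 KO library, and RNA does not give the protein level. The day from which the time course was counted was not given in the sources used here.

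SWI/SNF complexes are ATP-dependent machines that slide and eject nucleosomes, and they come in several assemblies that share an ATPase and core subunits. The non-canonical assembly, called ncBAF or GBAF, holds BRD9, a bromodomain protein that reads acetylated lysine, together with either GLTSCR1 or its paralog GLTSCR1L, which are now also named BICRA and BICRAL. It lacks SMARCB1, the ARID subunits and SMARCE1, and rhabdoid tumors are driven by loss of SMARCB1.

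Library totals were 9185866 to 16560749 expected counts for BRD9 KO and 11252871 to 15430142 for LacZ, where an expected count is RSEM's estimate of the reads of a gene. SMARCB1 was listed at 0 in 15 of 16 libraries, and the line's markers VIM, KRT8 and KRT18 were expressed in all of them. Of 12 markers of blood, endothelial, tubule, muscle and podocyte cells, 11 were found by symbol and 3 of these were at 0 in every library, namely PTPRC, CD3E and HBB. The summed level of the 11 was 1.62 to 4.44 TPM (RSEM's transcript abundance scaled to transcript length and library total) in LacZ and 0.49 to 4.99 TPM in BRD9 KO libraries. Without the muscle gene CKM the sums were 0.41 to 1.17 TPM and 0.16 to 1.24 TPM.

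The members spanned a wide range of levels per transcript length. SMARCA4, the ATPase that drives remodeling, stood highest at a median of 359.5 TPM over the 8 LacZ libraries (341.0 to 378.3). SMARCD1 and SS18 followed at medians of 82.6 and 82.3 TPM, and their ranges overlapped. SMARCC1, a scaffold subunit, stood at 66.8 TPM. BRD9 and BCL7B were next at 41.7 and 41.3 TPM, and each was the higher one in 4 of 8 LacZ libraries. BCL7C at 35.4 TPM overlapped BCL7B, whereas BCL7A at 10.7 TPM, GLTSCR1 at 8.15 TPM and GLTSCR1L at 3.14 TPM each lay below the gene before them with no overlap. By median TPM BRD9 held place 5 among the members in LacZ and place 7 in BRD9 KO cells, where it lay below BCL7C in 8 of 8 libraries. Of the 10 members, BRD9 was the 1 whose TPM ranges over all days did not overlap between the genotypes. The share of all genes with such separate ranges was not counted.

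**Figure D1:**
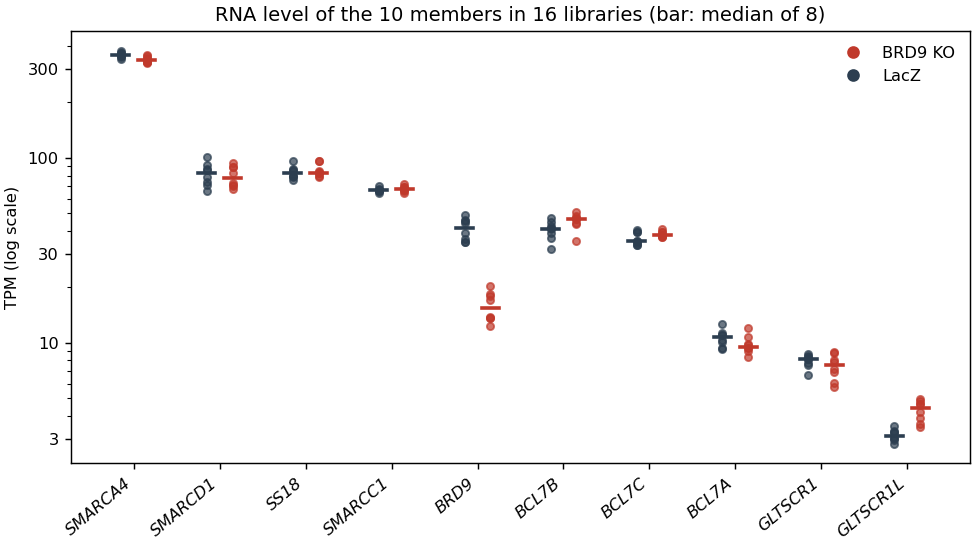
TPM of the 10 members on a log axis, with 1 point per library, LacZ (dark) beside BRD9 KO (red) and a bar at the median of 8 libraries. SMARCA4 sits near 359.5 TPM, BRD9 is the member whose 2 clouds are apart, and GLTSCR1L is lowest in both genotypes.

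Within families, the share of each paralog was read from summed TPM. SMARCA2, the alternative ATPase to SMARCA4, was listed at an expected count of 0 in all 16 libraries, so SMARCA4 made up 100% of the ATPase TPM. In a single library a count of 0 allows up to 3 counts, or a level of 0.181 to 0.327 CPM (counts scaled to the library total) depending on that total. SS18 made up 82.5% to 88.8% of SS18 and SS18L1 in LacZ libraries and 83.9% to 89.2% in BRD9 KO libraries. SMARCC1 took 58.5% to 66.1% of SMARCC1 and SMARCC2 in LacZ and 59.2% to 65.9% in BRD9 KO. SMARCD1 took 38.0% to 48.4% of SMARCD1, SMARCD2 and SMARCD3 in LacZ and 40.6% to 48.5% in BRD9 KO. For these subunits the ranges of the genotypes overlapped. The shares are of RNA in whole cells and do not give which paralog sits in the BRD9 complex. The paper reports that SMARCC2 was absent from BRD9 immunoprecipitates.

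BRD9 itself, the targeted gene, was measured first. It lies on the minus strand of chromosome 5 from 850406 to 892916 (GRCh37). In LacZ cells it stood at 34.96 and 36.20 TPM on day 1, 34.99 and 38.92 on day 2, 44.39 and 49.12 on day 3, and 45.37 and 46.29 on day 5. In BRD9 KO cells it stood at 13.70 and 12.30 TPM, 13.66 and 13.59, 18.26 and 17.80, and 20.27 and 17.08 on the same days. Every BRD9 KO library lay below every LacZ library, and the transcript remained present, with 151.4 to 425.6 expected counts in the BRD9 KO libraries. BRD9 fell by 1.38 on the log2 scale over the mean of the 4 days (standard error 0.036, adjusted p = 2.62e-15, edgeR's quasi-likelihood test with Benjamini-Hochberg adjustment over all genes tested). This is a drop of 61.6%, with a 95% confidence interval from 0.365 to 0.405 of the LacZ level. In RNA from bulk cells, fewer cells that carry the transcript and less transcript per cell cannot be told apart, and the reads were not examined for edited sequence. The neighbor ZDHHC11, on the same strand, overlaps BRD9 by 8683 bases and stood at 2.22 to 10.1 TPM. RSEM's posterior standard deviation for the reads given to BRD9 was at most 2.41 counts. As a share of the library's own count it was at most 0.604%, in a different library.

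The size of the BRD9 reduction did not differ detectably between days. The log2 fold changes were -1.51, -1.34, -1.31 and -1.36 on days 1, 2, 3 and 5. The change of days 3 and 5 minus that of days 1 and 2 was 0.090 (95% confidence interval -0.067 to 0.25, adjusted p = 0.59 from edgeR). An F-test for any difference between the days gave an adjusted p of 0.627 in the same fit.

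BRD9 RNA was higher on day 5 than on day 1 in both genotypes. In LacZ cells it stood at 48.3 ± 1.57 CPM, TMM-normalized from here on (SD, n = 2) on day 1 and at 61.5 ± 1.31 on day 5. It rose by 0.35 on the log2 scale in LacZ cells (standard error 0.058, adjusted p = 0.000213 from edgeR). It rose by 0.50 in BRD9 KO cells (standard error 0.089, adjusted p = 0.000246 from edgeR), from 16.9 ± 0.300 to 24.2 ± 2.38 CPM (SD, n = 2). The step lay between days 2 and 3 in both genotypes: LacZ libraries had 45.8 to 49.5 CPM on the first 2 days and 60.6 to 64.5 on the last 2. The step was noticed in the values and was not tested on its own.

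GLTSCR1L was the 1 member called higher in BRD9 KO cells. It encodes one of the alternative GLTSCR1-type subunits that mark ncBAF, and it lies on the plus strand of chromosome 6 from 42749790 to 42836296 (GRCh37), with no other annotated gene of the files overlapping it. In LacZ cells it stood at 12.0 and 11.3 CPM on day 1, 11.3 and 12.4 on day 2, 11.9 and 12.9 on day 3, and 13.8 and 13.0 on day 5. In BRD9 KO cells it stood at 15.5 and 13.9 CPM on day 1, 15.9 and 13.9 on day 2, 19.0 and 18.1 on day 3, and 17.9 and 18.6 on day 5. On each of the 4 days both BRD9 KO libraries lay above both LacZ libraries, a pattern that 2.30% of all genes tested showed.

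Over the mean of the 4 days GLTSCR1L was higher by 0.42 on the log2 scale in BRD9 KO cells (standard error 0.048, adjusted p = 3.46e-06 from edgeR), or 34.2% (95% confidence interval 1.25-fold to 1.44-fold). The test was passed on day 3, at 0.59 (adjusted p = 0.000373), and on day 5, at 0.45 (adjusted p = 0.00243). On day 1 the value was 0.32 (adjusted p = 0.21) and on day 2 it was 0.34 (adjusted p = 0.0832), neither of which passed. The difference between the later and the earlier days was 0.18 (adjusted p = 0.357 from edgeR), so a larger effect on the later days was not shown. The call on day 5 was lost with DESeq2 (adjusted p = 0.059). With limma on log2(TPM + 1) it was lost on day 3 (adjusted p = 0.0695) and day 5 (adjusted p = 0.112), whereas the mean of the 4 days passed there too (adjusted p = 0.00489).

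GLTSCR1 did not pass the test in any comparison. It lies on the plus strand of chromosome 19 from 48111453 to 48206534 (GRCh37). In LacZ cells it stood at 20.9 and 20.8 CPM on day 1, 15.8 and 16.3 on day 2, 18.9 and 22.0 on day 3, and 19.8 and 19.3 on day 5. The BRD9 KO libraries held 20.8 and 20.4 CPM on day 1, 15.3 and 19.1 on day 2, 19.7 and 16.8 on day 3, and 22.4 and 20.4 on day 5. They lay narrowly below both LacZ libraries on day 1, above both on day 5 and overlapped them on the other days, and the F-test for a difference between days gave an adjusted p of 0.63. The mean log2 fold change was 0.0077 (95% confidence interval -0.10 to 0.12, adjusted p = 0.951 from edgeR), which leaves room for a level between 0.932 and 1.09 of that in LacZ cells. These values are for RNA alone. For the GLTSCR1 protein the paper reports eviction from the complex and substantial degradation after BRD9 knockout in G401 cells.

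The balance between the 2 paralogs differed within each day. GLTSCR1L made up 25.9% to 31.5% of the summed TPM of GLTSCR1 and GLTSCR1L in LacZ libraries (median 27.9%). It made up 30.7% to 44.9% in BRD9 KO libraries (median 36.2%). The BRD9 KO share lay above both LacZ libraries of the day on 4 of 4 days, and GLTSCR1 remained the more abundant paralog in all 16 libraries. The share is computed from GLTSCR1L and is not an observation separate from its higher level. How often other gene pairs show this pattern was not counted. The shares carry no test, since TPM also moves with the transcript length that RSEM weights by isoform. That length ranged from 3301 to 5528 bases for GLTSCR1 in BRD9 KO libraries and was 6515 to 6530 bases for GLTSCR1L in all libraries. The highest share, 44.9%, came from BRD9 KO day 3 replicate 2, where GLTSCR1 was at its lowest TPM, 5.73.

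**Figure D2:**
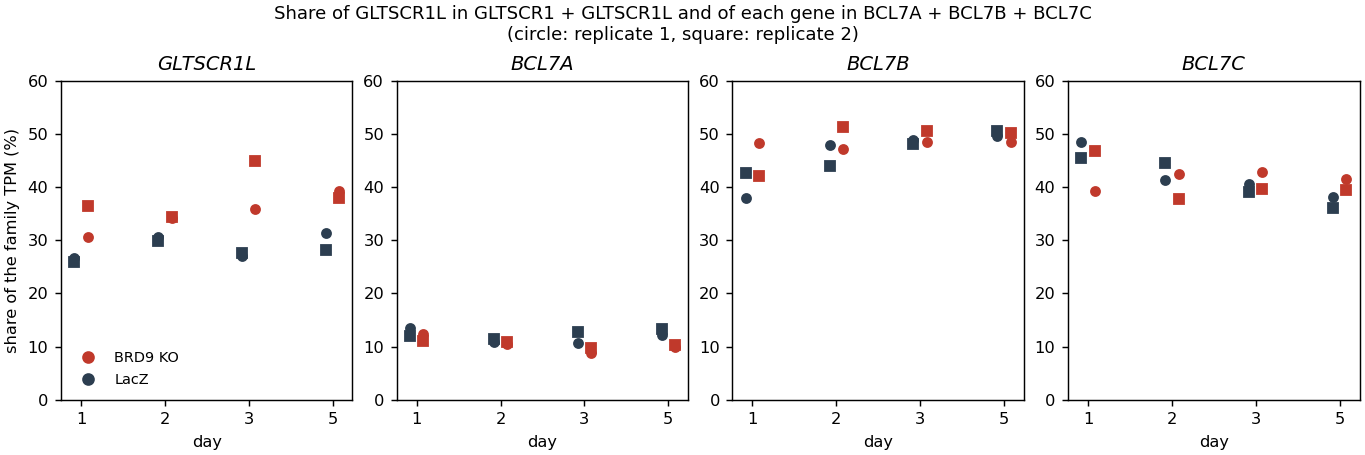
Share of summed TPM, in percent, by day for GLTSCR1L within GLTSCR1 and GLTSCR1L, and for each BCL7 gene within the 3 BCL7 genes, with 1 point per library and LacZ dark, BRD9 KO red. The GLTSCR1L points of BRD9 KO lie above those of LacZ on each day, from 30.7% to 44.9%.

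Core subunits differed little. SMARCD1, one of 3 related subunits that bridge the complex to transcription factors, had 94.5 to 111.0 CPM in LacZ and 93.0 to 109.2 CPM in BRD9 KO libraries. Its mean log2 fold change was -0.046 (95% confidence interval -0.088 to -0.0039, adjusted p = 0.123 from edgeR). SMARCC1, a scaffold on which the core is built, had a mean log2 fold change of 0.019 (adjusted p = 0.53), and its interval of 0.987-fold to 1.04-fold was the narrowest among the members that did not pass. SMARCD1 was higher on day 5 than on day 1 by 0.16 in LacZ (adjusted p = 0.00615) and by 0.15 in BRD9 KO (adjusted p = 0.00622, both from edgeR). The LacZ call was lost without LacZ day 1 replicate 2 (adjusted p = 0.109) or LacZ day 5 replicate 1 (0.0669), the BRD9 KO call without BRD9 KO day 1 replicate 2 (0.091), and both with limma on log2(TPM + 1) (adjusted p = 0.248 and 0.0973).

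SMARCA4, on the plus strand of chromosome 19 from 11071608 to 11190102 (GRCh37), was lower in BRD9 KO by a small amount. In LacZ cells it stood at 717.3 ± 14.1, 660.3 ± 5.76, 699.3 ± 1.28 and 741.2 ± 3.65 CPM on days 1, 2, 3 and 5 (SD, n = 2 each). In BRD9 KO cells it stood at 687.1 ± 17.4, 623.3 ± 1.35, 654.8 ± 2.44 and 683.6 ± 13.2 CPM (SD, n = 2 each). Both BRD9 KO libraries lay below both LacZ libraries on 4 of 4 days, as they did for BRD9 and for 2.81% of all genes tested.

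Over the mean of the 4 days SMARCA4 fell by 0.090 on the log2 scale (standard error 0.0099, adjusted p = 2.2e-06 from edgeR), or by 6.03%. The value was -0.063 on day 1 (adjusted p = 0.211), which did not pass. It was -0.083 on day 2 (adjusted p = 0.0286), -0.095 on day 3 (adjusted p = 0.00358) and -0.12 on day 5 (adjusted p = 0.000309), all from edgeR. The difference between later and earlier days was -0.033 (adjusted p = 0.414). The call on day 2 was lost on leaving out any 1 of its 4 libraries (adjusted p = 0.0831 to 0.211). On log2(TPM + 1) with limma the mean passed (adjusted p = 0.0157) but days 2, 3 and 5 did not (adjusted p = 0.385, 0.143 and 0.346). SMARCA4 had 6329 to 11080 expected counts per library, and a difference of only a few percent passed edgeR's test at this depth. The part played by depth was not tested.

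**Figure D3:**
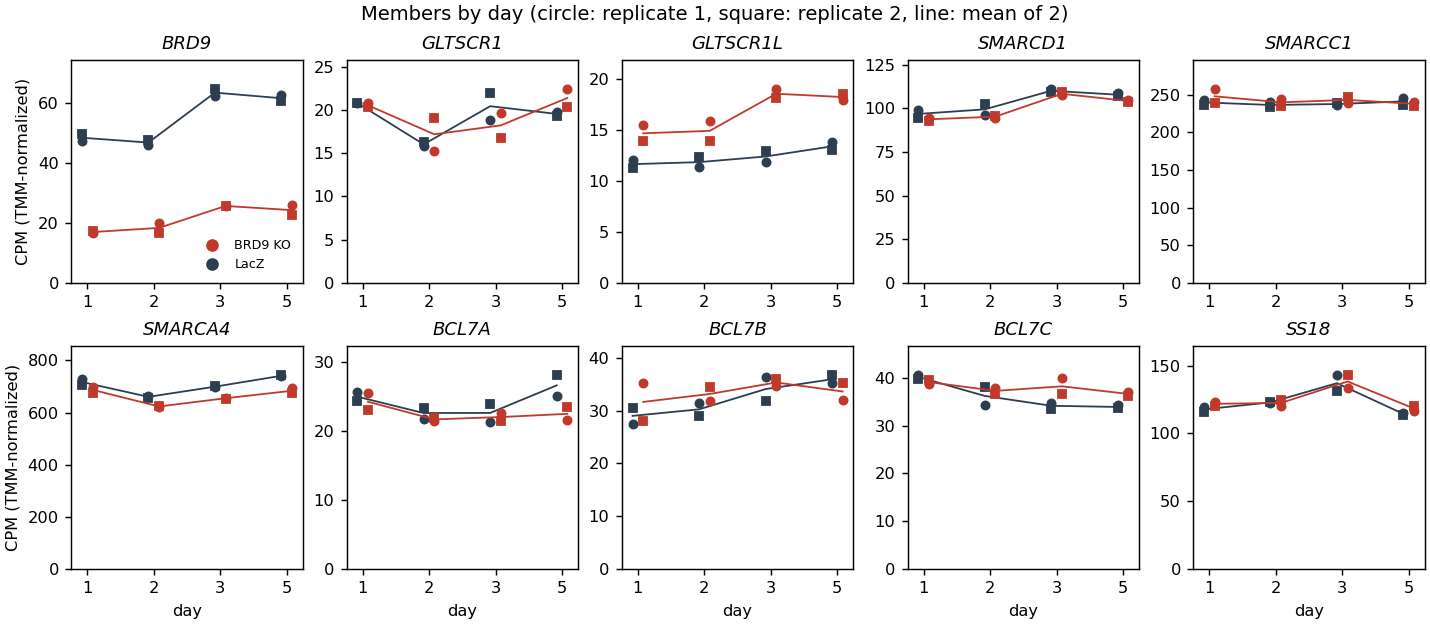
TMM-normalized CPM of each member by day, with axes from 0, a circle for replicate 1, a square for replicate 2 and a line through the mean of 2. The lines of LacZ (dark) and BRD9 KO (red) are far apart for BRD9, apart for GLTSCR1L with BRD9 KO above, and close for the others, with SMARCA4 slightly lower in BRD9 KO on each day.

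The remaining members belong to the part of the complex that sits with the ATPase. BCL7A, BCL7B and BCL7C are small paralogous subunits of no firmly assigned activity, and SS18 is the subunit fused to SSX in synovial sarcoma. BCL7A had a mean log2 fold change of -0.094 (adjusted p = 0.127) and its lowest value on day 5, at -0.23 (adjusted p = 0.069). The day 5 libraries of BCL7A held 21.5 and 23.4 CPM in BRD9 KO and 25.1 and 28.1 CPM in LacZ. BCL7B had 0.045 (95% confidence interval -0.051 to 0.14, adjusted p = 0.562). BCL7C had 0.073 (adjusted p = 0.111), with -0.035 on day 1 and 0.17 on day 3 (adjusted p = 0.0878). SS18 had 0.026 (95% confidence interval -0.021 to 0.073, adjusted p = 0.488, all from edgeR).

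Over time, BCL7B and BCL7C moved in opposite directions in LacZ cells. BCL7B was higher on day 5 than on day 1 in LacZ cells by 0.30 (29.0 ± 2.05 against 36.0 ± 1.13 CPM, SD, n = 2; adjusted p = 0.0192), whereas BCL7C fell by 0.24 (40.2 ± 0.548 against 33.9 ± 0.458 CPM, SD, n = 2; adjusted p = 0.00603 from edgeR; 0.0566 with DESeq2). In BRD9 KO cells the values were 0.13 for BCL7B (adjusted p = 0.303) and -0.10 for BCL7C (adjusted p = 0.228). The BCL7B value in BRD9 KO cells ran from -0.063 to 0.27 on leaving out 1 library, and it passed without BRD9 KO day 1 replicate 1 (0.27, adjusted p = 0.0405). Whether the change over time differed between the genotypes was tested for no BCL7 gene on these days alone. The F-test for a genotype effect that differs between days gave adjusted p = 0.736 for BCL7B and 0.46 for BCL7C, the lowest of the 10 members. BCL7B made up 38.0% and 42.6% of the summed BCL7 TPM in the LacZ libraries of day 1 and 49.7% and 50.6% in those of day 5. In BRD9 KO libraries the BCL7B share was 48.4% and 42.1% on day 1 and 48.6% and 50.2% on day 5. The shares carry no test. The LacZ call for BCL7B was lost without LacZ day 1 replicate 1 (adjusted p = 0.159), LacZ day 5 replicate 1 (0.0596) or LacZ day 5 replicate 2 (0.115). BCL7C overlaps 4 annotated genes of the files, of which MIR762HG and MIR762 lie on the opposite strand, and the library kit does not keep the strand. MIR762HG had 4.83 to 18.9 expected counts per library and MIR762 0 to 5.94, beside 349.8 to 661.9 for BCL7C. MIR762 spans 83 bases, and its TPM ran from 0 to 75.7.

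**Figure D4:**
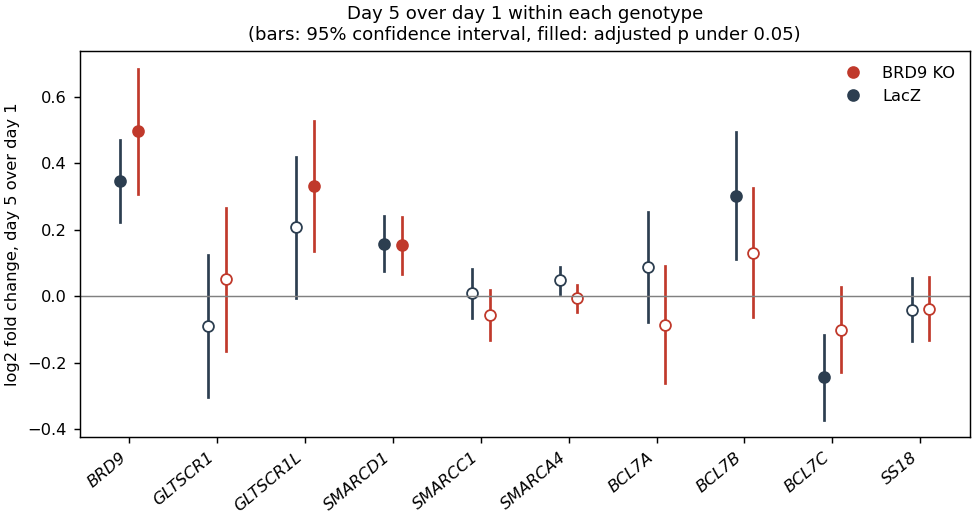
Log2 fold change of day 5 over day 1 within LacZ (dark) and BRD9 KO (red) for each member, with 95% confidence intervals, filled where the adjusted p was under 0.05. BRD9 and SMARCD1 are filled in both genotypes, GLTSCR1L in BRD9 KO, and BCL7B above and BCL7C below 0 in LacZ.

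Counted together, the members called between BRD9 KO and LacZ were 1 of 10 on day 1, 2 on day 2, 3 on day 3 and 3 on day 5. Of all genes tested, 0.539% were called on day 1, 2.70% on day 2, 10.4% on day 3 and 15% on day 5. BRD9, the targeted gene, was among the members called on every day, which leaves 0, 1, 2 and 2 of the other 9. Over the mean of the 4 days 3 members were called, GLTSCR1L higher and BRD9 and SMARCA4 lower, against 20.2% of all genes. The median log2 fold change of the 9 members other than BRD9 was 0.019 in that comparison, and that of all genes was -7.7e-05. None of the 10 was called in the change of days 3 and 5 minus that of days 1 and 2. Of all genes 7.43% were called there, and BCL7C had an interval of 0.0047 to 0.26 (adjusted p = 0.245 from edgeR). Between days 5 and 1, 4 members were called in LacZ cells against 25.6% of all genes, and 3 in BRD9 KO cells against 35.1%. GLTSCR1L was the third in BRD9 KO cells, at 0.33 (adjusted p = 0.00926), and leaving out BRD9 KO day 1 replicate 2 (adjusted p = 0.211) or BRD9 KO day 5 replicate 2 (adjusted p = 0.0837) ended this call, as did DESeq2 (adjusted p = 0.127) and limma on log2(TPM + 1) (adjusted p = 0.119). No excess of called members over the background is read from counts this small.

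**Figure D5:**
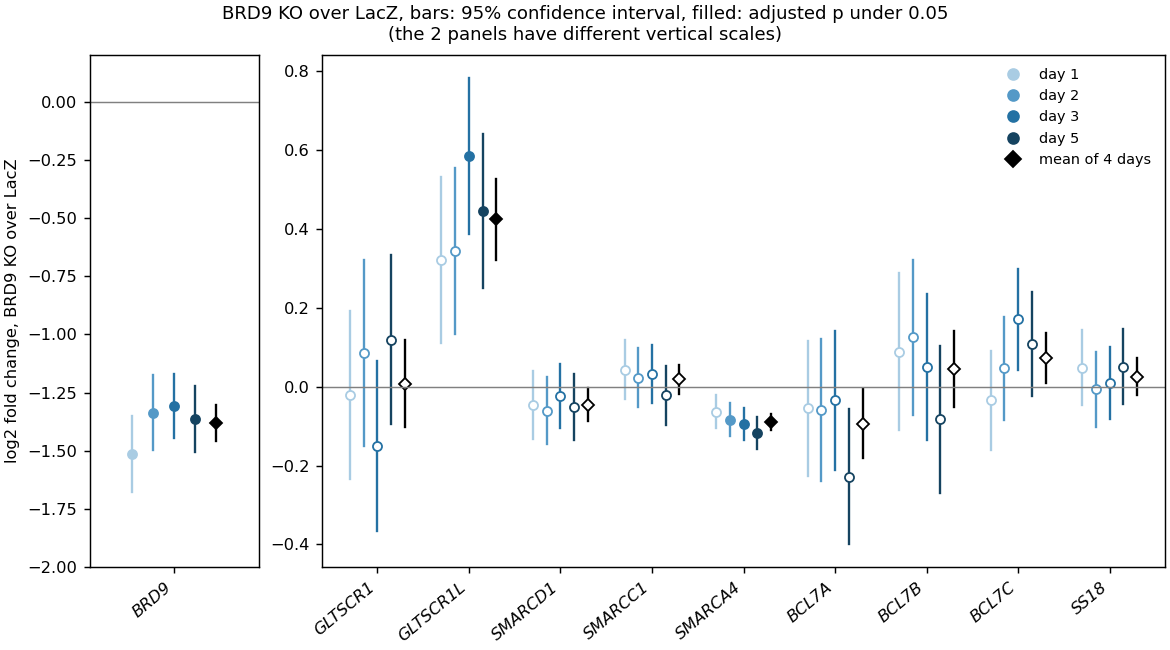
Log2 fold change of BRD9 KO over LacZ by day (circles, light to dark) and over the mean of 4 days (diamonds) with 95% confidence intervals, filled where the adjusted p was under 0.05. BRD9 (left, own scale) lies between -1.51 and -1.31, GLTSCR1L lies above 0, SMARCA4 just below it, and the intervals of the other members over the mean of 4 days come within 0.01 of 0 or include it.

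Isoform use of the members was read from the transcript length that RSEM weights by isoform. Of 12617 genes tested for this length with limma, 0 were called (0%), and 690 had an unadjusted p under 0.05. BCL7B was the member with the lowest p: its length was 1328 to 1488 bases in LacZ and 1219 to 1363 bases in BRD9 KO libraries, with some overlap and a mean difference of -6.13% (unadjusted p = 0.00747, adjusted p = 0.826). BRD9 had 2140 to 2391 bases in LacZ and 2062 to 2562 bases in BRD9 KO libraries, with overlap and an adjusted p of 1. Fold changes of all genes rose weakly with transcript length, with Spearman's rho of 0.111 over 15027 genes for the mean of the 4 days, as a description across genes that share libraries. In the tenth of genes with the longest transcripts, which holds GLTSCR1L, the median log2 fold change was 0.019, beside 0.42 for GLTSCR1L itself. In the tenth that holds SMARCA4 it was 0.013, beside -0.090 for SMARCA4.

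Other subunits of the same complexes were read from a list. Of the 4 listed further ncBAF subunits, 3 were tested, ACTL6A, ACTB and SS18L1. ACTB, the actin that sits with SMARCA4 and is also the cytoskeletal beta-actin, was lower on every day, and fell by 0.12 over the mean of the 4 days (standard error 0.0055, adjusted p = 7.6e-12 from edgeR). Of 15 listed subunits of other assemblies or paralogs of members, 12 were tested and 1 was called over the mean of the 4 days, against 20.2% of all genes. It was ARID1A, a DNA-binding subunit of canonical BAF, which fell by 0.10 (adjusted p = 9.06e-05 from edgeR). ARID1A was called on day 2 (-0.14, adjusted p = 0.0225) and day 3 (-0.15, adjusted p = 0.00481), and not on day 1 (-0.074, adjusted p = 0.409) or day 5 (-0.059, adjusted p = 0.26). On day 5 the PBAF subunits BRD7 and PHF10 and the BAF and PBAF subunit SMARCE1 were called, which is 3 of 12 beside 15% of all genes. Their values were -0.18, -0.12 and -0.12 (adjusted p = 0.0307, 0.04996 and 0.0366 from edgeR). Their highest values on other days were 0.13 for BRD7 and 0.061 for SMARCE1 on day 1 and 0.076 for PHF10 on day 3. None of these was called, nor were the means of the 4 days for BRD7, PHF10 and SMARCE1 (adjusted p = 0.381, 0.931 and 0.106 from edgeR). The calls of listed subunits outside the members were not checked with other tests or with a library left out. Of the 12, none was called higher in BRD9 KO than in LacZ on any day. Of the 15027 genes tested, 41, 169, 690 and 1131 were called higher on days 1, 2, 3 and 5. No preferred direction is read from 12 genes.

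Genes with the most similar profile over the 16 libraries were found by Pearson's correlation of log2 CPM among 12352 genes, which share library, genotype and day with the members. For BRD9 they were CADM4 (r = 0.868), FLNA (0.864) and SREBF1 (0.861). For GLTSCR1L they were XIAP (0.943), ERGIC1 (0.927) and DLGAP1-AS2 (0.906). SMARCA4 was nearest to REPIN1 (0.944), TIMM13 (0.941) and SSBP4 (0.936). For SMARCC1, the highest was ABL2 at 0.760, the lowest such value among the 10 members.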

How the data were processed

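Total RNA went into libraries of a NEBNext Ultra kit, which does not mark strand. The authors aligned reads to hg19 with STAR and quantified genes with RSEM; versions are not given in the sources used here. The deposited files hold RSEM's expected counts, TPM and a gene length column weighted by isoform (in bases), with the posterior standard deviation of the counts. Of expected counts above 0, 35.7% were not whole. They were rounded, which shifted no library total by more than 90.1.

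Members and gene lists were chosen with earlier results of these data known, and members, paralogs and listed subunits are the genes named, with the 3 most correlated genes (mean log2 CPM of at least 1). The F-test over days and the values for genes of like length were added after seeing the data. Genes were filtered with filterByExpr (minimum count 10, minimum total 15), TMM-normalized and fitted in edgeR 4.0.16 (R 4.3.3) as 8 group means, with 8 residual degrees of freedom. Calls needed an adjusted p under 0.05. Lengths were tested with limma 3.58.1. DESeq2 1.42.0, limma on log2(TPM + 1), other filters, scalings, sample sets, replicate blocks and leaving out each library were alternatives. The scripts were tested on simulated data. Positions are from GENCODE on GRCh37. The paper calls the pairs biological replicates without saying whether they were separate cultures, so the p-values may measure technical spread alone. Limits on counts of 0 cover counting error only. Standard errors were computed from the fold change and F statistic of the edgeR fit, and confidence intervals from these errors. They hold the spread between libraries as that fit estimates it, and were not compared with counting error alone. An interval can therefore differ slightly from the p-value beside it. Guide sequences were not used here. A listed marker gene is not reported here.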

Additional observations from a re-analysis of the deposited data

How the results depend on the processing

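Of 1146 values of the members under alternatives, 1120 kept their direction where called and their side of the threshold, 23 lost the call, 3 gained one and 0 reversed; 40 values called in neither setting changed sign. Counts of genes called depended on the method. On day 1 the 81 genes became 290 with no filter, 49 with only that day's libraries and 11 with limma on log2 TPM, which gave 103, 412 and 994 genes on days 2, 3 and 5, 1324 for the mean, 317 for later minus earlier days, and 1811 (LacZ) and 3396 (BRD9 KO) over time. DESeq2 gave 893 genes on day 3, 1339 on day 5, 1829 for the mean, 631 for later minus earlier days and 2393 for LacZ over time. Members called with DESeq2 were 0 on day 1 and 1 on day 2, where its filter left BRD9 without an adjusted p. With limma they were 1 on each of days 2, 3 and 5 and 1 for BRD9 KO over time.

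Leaving out 1 library gave 15 to 30 genes on day 1, 201 to 261 on day 2, 841 to 1019 on day 3, 1442 to 1607 on day 5, 2630 to 2857 for the mean, 837 to 961 for later minus earlier days, 2572 to 2806 for LacZ and 3723 to 4329 for BRD9 KO over time. Members called were then 1 on days 1 and 2, 3 on days 3 and 5 and for the mean, 2 to 3 for LacZ over time (2 without LacZ day 5 replicate 1), 2 to 4 for BRD9 KO over time, and 0 to 3 genes were called for length. In BRD9 KO over time SMARCD1 lost its call without BRD9 KO day 1 replicate 2 (adjusted p = 0.091), and SMARCC1 gained one (0.0326); BCL7B gained one without BRD9 KO day 1 replicate 1. The cause was not tested.

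The labels do not say whether same-numbered libraries were paired. Their residuals correlated at -0.0123, -0.0489, -0.0245 and -0.0176 on days 1, 2, 3 and 5 over all genes. The 6273 more abundant genes (log2 CPM above 5) gave -0.0435, -0.118, 0.101 and 0.177. Not every pair exceeded the 0.1 set for pairing them, so the main fit holds no pairing. These values do not exclude it. With the replicate number as a block within days, the fit called 76, 369, 1518 and 2206 genes by day and 2928 for the mean. With it, 4 members were called on day 5, BCL7A being added (adjusted p = 0.0472), and no other call of a member changed under this block or the block across days. Depth limits the low members: GLTSCR1L had 140 to 315 expected counts per library.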
